A study of Homo sapiens with 8 samples.

Results

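The major spliceosomal small nuclear RNAs (snRNAs) U1, U2, U4, U5 and U6 were examined in RNA-seq libraries of A549 cells, an established line derived from an adenocarcinoma of the human lung. The rows taken were those of the count table with the gene type snRNA in GENCODE 44 and a total of at least 80 counts over the 8 libraries, without the snRNAs of the minor spliceosome and U7. This gave 49 of the 58302 genes of the table, out of 1900 rows annotated as snRNA, of which 445 had at least 1 count. The members were therefore chosen by their summed counts, and the pattern they show was known when they were proposed. They comprised 20 U1 rows (16 of them U1 variants with RNVU1 symbols and 4 pseudogenes), 5 U2 rows, 3 U4 rows, 7 U5 rows and 14 U6 rows. Classes were taken from the symbols: 16 variants (RNVU1), 22 pseudogenes (symbols that end in P) and 11 others, called genes here.

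The cells had been transfected transiently with a small interfering RNA against APEX1, which encodes the DNA repair endonuclease APE1, or with a scramble control, and 4 libraries carried the label siAPEX1 and 4 the label siCTRL. The study asked how RNA levels change when APE1 is depleted in lung cancer cells. Libraries were made from total RNA with a kit for small RNA that adds a poly(A) tail to the 3′ end of each RNA and primes reverse transcription from it, with changes by the authors to read primary miRNA transcripts too. All 8 libraries came from 1 cell line. The study calls the 4 of a group biological replicates, but the labels do not say whether they came from separate cultures, so the p-values measure the spread between these libraries. APEX1 itself had 51, 61, 64 and 47 counts in the libraries labelled siCTRL and 21150, 19470, 27916 and 20767 counts in the libraries labelled siAPEX1 (log2 fold change 9.29, standard error 0.127, adjusted p = 8.97e-42), so the RNA counted on this gene went against the label. The study checked the depletion on the protein, which was not analysed here. A count on the gene may hold reads of the APEX1 transcript or of the transfected RNA directed against it, and the part of either was not tested. The libraries are therefore named as labelled, and every direction below is that of the libraries labelled siAPEX1 relative to those labelled siCTRL. Markers of A549 (12 of 12 with counts, ALDH1A1 the highest) summed to 1736 to 1951 CPM (counts per 1000000, scaled with TMM factors) in the libraries labelled siCTRL and 1486 to 1600 CPM in those labelled siAPEX1, while the leukocyte, endothelial, fibroblast and hepatocyte markers summed to at most 6.64 CPM in any library.

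Each major snRNA forms the core of a ribonucleoprotein particle (snRNP). U1 pairs with the 5′ splice site and U2 with the branch point, U4 escorts U6 and holds it inactive until U6 is released to take part in catalysis, and loop 1 of U5 holds the exons. U1, U2, U4 and U5 are transcribed by RNA polymerase II and receive a ring of Sm proteins, whereas U6 is transcribed by RNA polymerase III and carries an LSm ring. The human genome holds several copies of each gene and very many related pseudogenes, and for U1 also a group of variant genes, the RNVU1 genes, whose transcripts differ from the standard U1.

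The sequences of U1 are given first because the rows differed in how far they moved and in how far they depart from standard U1. In the human genome (GRCh38, annotation of GENCODE 44) the standard gene is RNU1-1 (chr1:16514122-16514285, minus strand). The members shown against it are RNVU1-7 (chr1:148038753-148038916, minus strand), RNVU1-31 (chr1:145465617-145465780, minus strand), RNVU1-6 (chr1:146052081-146052244, minus strand), RNVU1-3 (chr1:148402715-148402875, plus strand) and RNVU1-26 (chr1:144523860-144524021, minus strand). Each is written 5′ to 3′ in lower case, and capitals mark the bases that differ from RNU1-1 in a global alignment, so deleted bases are not seen.
RNU1-1: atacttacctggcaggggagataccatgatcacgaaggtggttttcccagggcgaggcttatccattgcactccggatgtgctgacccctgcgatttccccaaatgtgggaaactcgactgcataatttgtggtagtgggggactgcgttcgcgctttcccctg
RNVU1-7: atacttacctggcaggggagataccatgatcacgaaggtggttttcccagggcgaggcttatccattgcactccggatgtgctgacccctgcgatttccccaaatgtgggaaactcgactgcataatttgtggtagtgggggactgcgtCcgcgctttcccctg
RNVU1-31: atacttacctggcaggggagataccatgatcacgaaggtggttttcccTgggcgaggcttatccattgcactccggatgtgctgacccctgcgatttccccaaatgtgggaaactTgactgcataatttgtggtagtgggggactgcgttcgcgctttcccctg
RNVU1-6: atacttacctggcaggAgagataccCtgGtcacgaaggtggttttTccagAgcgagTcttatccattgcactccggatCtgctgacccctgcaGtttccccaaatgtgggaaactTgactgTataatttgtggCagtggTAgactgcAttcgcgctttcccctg
RNVU1-3: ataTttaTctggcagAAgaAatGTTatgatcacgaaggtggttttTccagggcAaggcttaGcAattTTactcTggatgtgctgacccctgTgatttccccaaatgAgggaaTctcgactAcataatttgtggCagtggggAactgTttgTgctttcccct
RNVU1-26: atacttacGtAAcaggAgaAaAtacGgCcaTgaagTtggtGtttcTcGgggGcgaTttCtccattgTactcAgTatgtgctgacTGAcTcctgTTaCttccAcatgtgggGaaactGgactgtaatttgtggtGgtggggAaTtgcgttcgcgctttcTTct

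The standard U1 row could hardly be measured in these files. The sequence of RNU1-1 occurs 9 times in the genome and 0 of its 134 windows of 31 bases occur only once, and it had 3 counts in all 8 libraries together. RNU2-1, whose sequence occurs 11 times, had 0 counts, and RNU6-1, whose sequence occurs 7 times, had 36. The counting kept only reads with a single best place in the genome. RNVU1-7 differs from RNU1-1 by 1 substitution, T150C (counted from the 5′ end of RNU1-1), which makes 11.2% of its windows unique, and it alone held 73560 of the members' counts. The names of the rows therefore say where reads were placed, and reads that match several copies equally well are in no row. Of the 49 members, in 35 most windows were unique, in 5 none was, and 3 had exact copies elsewhere.

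The 49 rows held 1.42% ± 0.0157 (SD, n = 4) of all counts in the libraries labelled siCTRL and 1.49% ± 0.114 (SD, n = 4) in those labelled siAPEX1. U1 rows made up 54.5% of the members' counts, U5 27.5%, U4 10.6%, U2 5.99% and U6 1.48%. All libraries labelled siAPEX1 were smaller, with totals of 1348386 to 1619500 counts against 1639796 to 1949886.

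In these bulk libraries more of an RNA per cell and less of the other RNA that was read cannot be told apart. All 49 rows had enough counts to be tested, and 27 rose in the libraries labelled siAPEX1 (edgeR's quasi-likelihood test, adjusted p at most 0.05 over the 5368 genes tested), whereas 0 fell. Over all genes tested 31.7% passed, with 15.9% higher and 15.8% lower. At an unadjusted p under 0.05 the members counted 32 higher and 0 lower, and DESeq2 gave 25 higher and 0 lower. A rise of at least 1 on the log2 scale was found for 19 members, against 3.6% of all genes, and a fall of that size for 0, against 5.68% (9.28% in either direction). The log2 fold change was positive for 46 members and negative for 3, with a median of 0.55 beside −0.00347 over all genes tested. In CPM the 4 libraries labelled siAPEX1 lay wholly above the 4 labelled siCTRL for 30 members and below them for 0, where 14% of all genes lay above and 14.9% below (28.9% in all).

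The total of 80 counts includes the libraries labelled siAPEX1, so a row that is low in the others can have been taken because it is high there. RNVU1-3, RNVU1-21 and RNU6-2, with 27, 32 and 36 counts in the libraries labelled siCTRL, would have totalled 44.1, 52.2 and 58.8 had all 8 libraries stood at the siCTRL level. Their rise is in part fixed by the way they were chosen, and their values are given as a description. Without these 3, a check added after the data were seen, 24 of 46 members rose, 16 of them by at least 1, and the median was 0.47.

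These counts depend in part on how the libraries were scaled. When the libraries were scaled by their size alone, without TMM factors, the median of all genes moved to −0.34, and relative to zero 22 members were higher and 3 lower (RNU5E-1, RNU5D-1 and RNU2-59P), with a median of 0.21 and 31 positive and 18 negative values. Over all genes that scaling gave 340 higher and 1945 lower, against 856 and 847. A rise of at least 1 was then found for 14 members, against 19 with TMM factors. Among all genes it was then found for 84, against 193. The 22 were all among the 27, and RNU4-2, RNU4-1, RNU1-89P, RNU6-33P and RNU6-1005P no longer passed. Shares within a family do not depend on the scaling, and they are given below beside the fold changes.

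**Figure D1:**
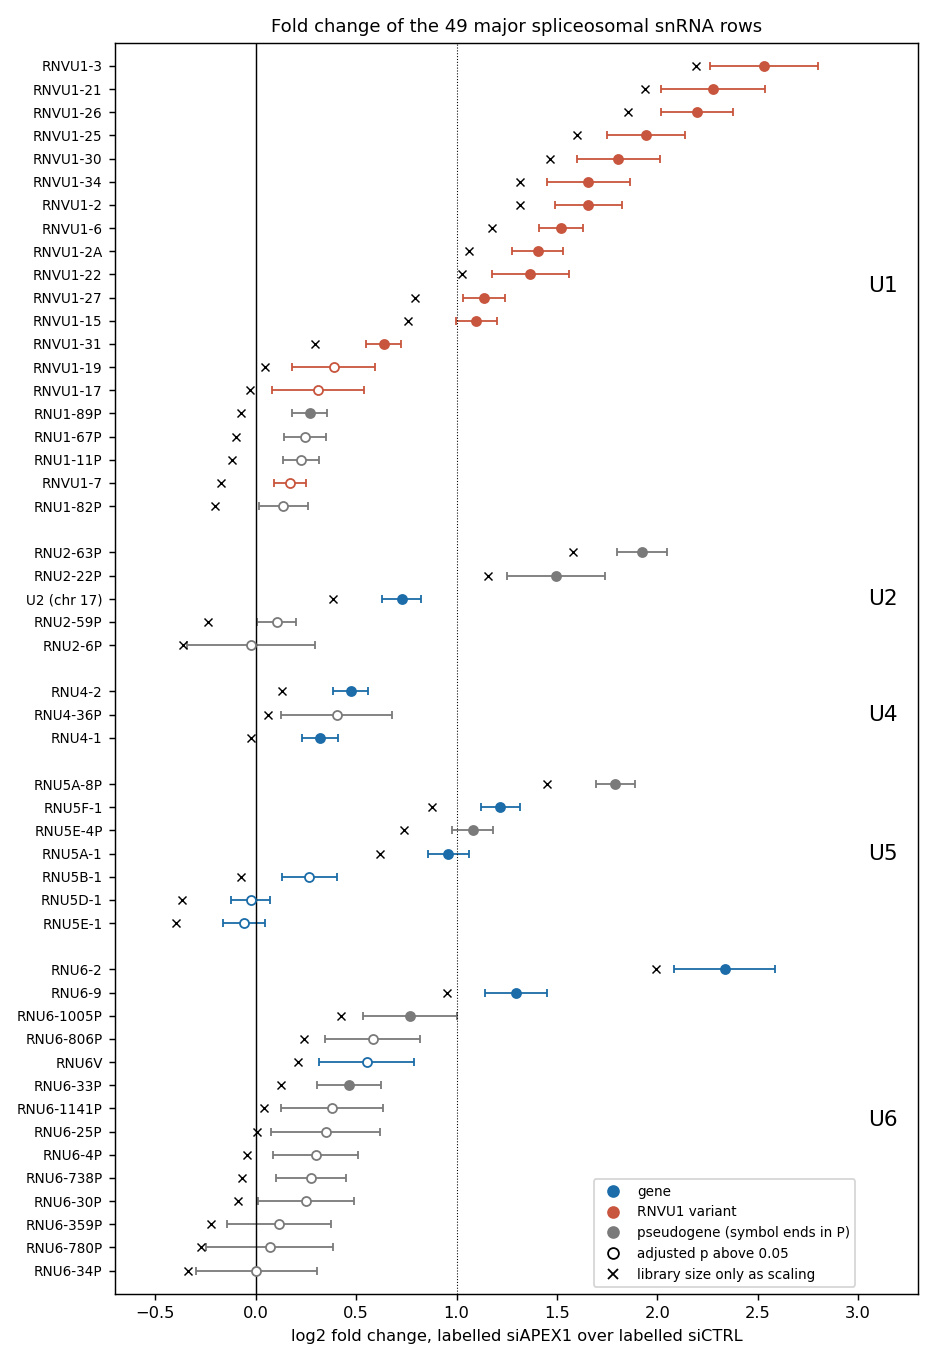
Log2 fold changes of the 49 members, by family and in order of size, in the libraries labelled siAPEX1 over those labelled siCTRL (TMM scaling). Points are coloured by class, bars are standard errors from edgeR, open points did not pass the test, the dotted line marks 1 and crosses give the value with library size only. The 12 U1 variants at the top, RNU2-63P, RNU2-22P, RNU5A-8P, RNU5F-1, RNU5E-4P, RNU6-2 and RNU6-9 lie beyond 1, and the crosses of RNVU1-7 and RNU5E-1 lie to the left of 0.

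Log2 fold changes of the U1 rows ran from 0.14 to 2.53. Of the 20 rows 14 rose, 12 of them by at least 1 on the log2 scale, and all 12 were RNVU1 variants. Over all genes tested 15.9% rose, and 3.6% rose by at least 1. Without the 2 rows taken only through the libraries labelled siAPEX1, both of them variants, 12 of 18 rose, with a median of 1.12. Of these 12 rows 10 rose by at least 1. Among the 16 variants, those 2 included, 13 rose, with a median log2 fold change of 1.46. Of the 4 U1 pseudogenes 1 rose, with a median of 0.23 over the 4. The row with by far the most counts, RNVU1-7, measured 5519.6, 5613, 5376 and 4867 CPM in the libraries labelled siCTRL and 5750.2, 6113, 6023 and 6139 CPM in those labelled siAPEX1. The groups did not overlap, but the difference was small and did not pass (log2 fold change 0.17, standard error 0.0802, adjusted p = 0.107), and its sign turned with library size only (−0.17).

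The variants that rose by at least 1 were low in the libraries labelled siCTRL, with means of 3.39 to 59.1 CPM. RNVU1-19 and RNVU1-17, which did not pass, were low there too (12.6 and 11.2 CPM). The values of RNVU1-3 and RNVU1-21 describe rows that reached the total only through the libraries labelled siAPEX1. RNVU1-3 measured 2.01, 3.87, 3.24 and 4.43 CPM in the libraries labelled siCTRL and 18.1, 17.9, 23.1 and 19.9 CPM in those labelled siAPEX1, or 4, 8, 7 and 8 counts against 22, 22, 32 and 25. This was the steepest rise of any member (log2 fold change 2.53, standard error 0.267, adjusted p = 3.88e-10), and no library of one group came near the other. RNVU1-21 went from 4.02, 2.91, 5.10 and 3.87 CPM to 19.8, 17.9, 17.3 and 23.8 CPM (log2 fold change 2.28, standard error 0.258, adjusted p = 2.17e-09). The sequence of RNVU1-26 shows a changed 5′ end, and only 18.9% of its windows are unique. RNVU1-26 went from 8.05, 8.72, 10.2 and 8.85 CPM to 39.5, 35.7, 43.97 and 46.1 CPM (log2 fold change 2.20, standard error 0.178, adjusted p = 3.75e-13). RNVU1-21 and RNVU1-26 were more than 4 times as high, 4.85-fold and 4.58-fold.

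Better covered variants rose by less and with narrower errors. RNVU1-6 measured 43.2, 42.6, 48.2 and 40.95 CPM in the libraries labelled siCTRL and 114, 124, 130.5 and 134 CPM in those labelled siAPEX1 (log2 fold change 1.52, standard error 0.110, adjusted p = 1.47e-14). All 134 of its windows are unique. RNVU1-15, with 98.5% of its windows unique, went from 54.8, 53.3, 55.1 and 56.4 CPM to 119, 115, 119 and 118 CPM (log2 fold change 1.10, standard error 0.104, adjusted p = 2.09e-11), and the 4 libraries of each group lay within a few CPM of each other. RNVU1-27 measured 61.8, 58.6, 61.2 and 54.8 CPM against 124, 126, 133 and 137 CPM (log2 fold change 1.14, standard error 0.103, adjusted p = 7.94e-12). The variants RNVU1-25, RNVU1-30, RNVU1-34, RNVU1-2, RNVU1-2A and RNVU1-22 rose by 1.94, 1.81, 1.66, 1.66, 1.40 and 1.37 on the log2 scale, with standard errors of 0.126 to 0.209 and adjusted p of at most 2.50e-07. For RNVU1-25 only 22.3% of the windows are unique. For each of these 12 variants every library labelled siAPEX1 lay above every library labelled siCTRL, and each also passed the test with library size only. For RNVU1-3 and RNVU1-21 this was in part fixed by the way they were chosen. With library size only RNVU1-27 and RNVU1-15 rose by less than 1, at 0.79 and 0.76.

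The remaining U1 rows moved less. RNVU1-31, which differs from RNU1-1 by the substitutions A49T and C116T, went from 747, 890.1, 762 and 881 CPM to 1288, 1177, 1318 and 1315 CPM (log2 fold change 0.64, standard error 0.0871, adjusted p = 1.53e-07). RNU1-89P on chromosome 4, the pseudogene with the most counts, measured 395, 428, 418 and 449 CPM against 499, 493, 505 and 537 CPM (log2 fold change 0.27, standard error 0.0863, adjusted p = 0.0147), and its value with library size only was −0.07. RNU1-11P, RNU1-67P, RNU1-82P, RNVU1-17 and RNVU1-19 did not pass, with log2 fold changes of 0.14 to 0.39.

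**Figure D2:**
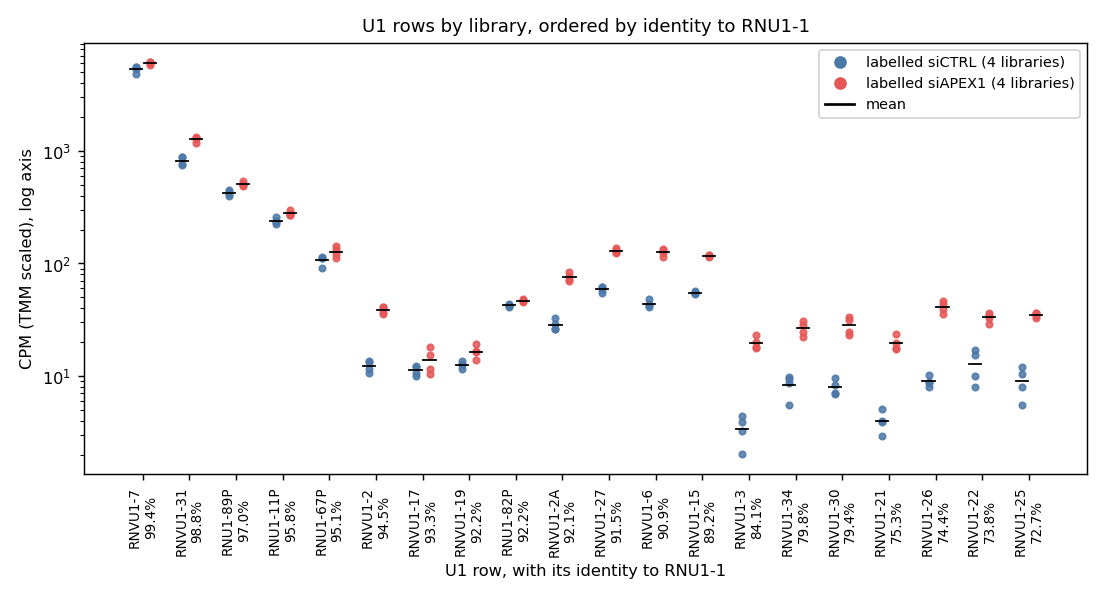
Level of each U1 row in each of the 8 libraries, in CPM on a log axis, with rows ordered from left to right by falling identity to RNU1-1 and black lines for the group means. RNVU1-7 stands near 5344 CPM and 6006 CPM with little between the groups. The groups do not overlap for 18 of the 20 rows, the exceptions being RNU1-67P and RNVU1-17. Without the 2 rows taken only through the libraries labelled siAPEX1, this holds for 16 of 18. Over all genes tested the groups do not overlap for 28.9%, and the libraries labelled siAPEX1 lie above for 14%.

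The make-up of the U1 counts changed as well, and this does not depend on scaling. RNVU1-7 took 73.6% ± 1.66 (SD, n = 4) of the U1 members' counts in the libraries labelled siCTRL and 67.01% ± 0.960 (SD, n = 4) in those labelled siAPEX1, with no overlap. The share of RNVU1-31 went from 11.3% ± 1.24 (SD, n = 4) to 14.2% ± 0.740 (SD, n = 4), without overlap. The 12 variants past the fold threshold together held 3.27% to 3.62% of the U1 counts in the libraries labelled siCTRL and 7.59% to 7.80% in the libraries labelled siAPEX1. These 12 were chosen by their fold change, so this range describes the size of the shift and is no separate evidence for it. The summed CPM of the 20 U1 rows was 7341, 7604, 7237 and 6825 in the libraries labelled siCTRL and 8664, 8933, 9035 and 9223 in those labelled siAPEX1, a log2 ratio of 0.31 that became −0.0296, with overlapping groups, when only library size was used.

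Rows less like standard U1 tended to have larger fold changes. Across the 20 U1 rows the log2 fold change and the identity to RNU1-1 had a Spearman rho of −0.77 and a Pearson r of −0.76, given as a description over rows that share libraries and, in part, sequence. The rows with low identity were also low in counts, and the rho with total counts was −0.64, while that with the share of unique windows was 0.13. Of the 5 rows with at least 95% identity 0 rose by 1 or more (median log2 fold change 0.25), and of the 15 below 95% identity 12 did (median 1.52). Without RNVU1-3 and RNVU1-21, which were taken only through the libraries labelled siAPEX1, the rho was −0.75 and r −0.77 over 18 rows, and 10 of the 13 rows left below 95% identity rose by 1 or more (median 1.40). Over all 49 members, each against the reference gene of its family, the rho was −0.36.

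**Figure D3:**
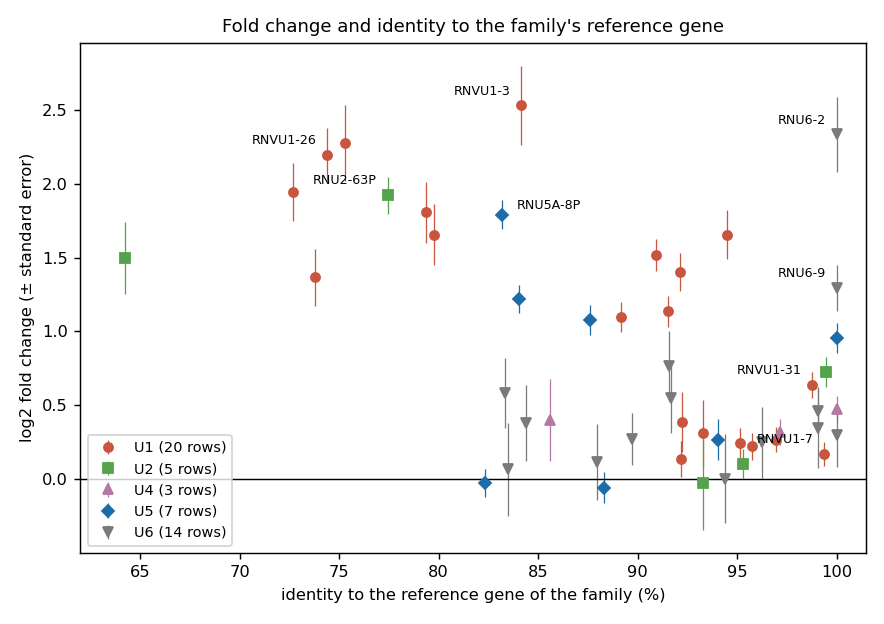
Log2 fold change (with its standard error) of each of the 49 members against the identity of its sequence to the reference gene of its family, RNU1-1, RNU2-1, RNU4-2, RNU5A-1 or RNU6-1. The 3 U1 rows above 2 (circles) lie between 74.4% and 84.1% identity and the 5 with at least 95% lie between 0.17 and 0.64, while RNU6-2 and RNU6-9 are high at 100%.

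The bases by which U1 recognises an intron were examined next. The letters ACTTACCTG, at the 5′ end of standard U1, pair with the 5′ splice site, and they were sought on the sense strand with no mismatch. They were found in 50 of the 145 U1 rows of the annotation (34.5%) and in 9 of the 20 members. Of the 12 variants that rose by at least 1, 10 lacked these letters, RNVU1-3, RNVU1-21 and RNVU1-26 among them. RNVU1-6 and RNVU1-27 held them. Of the other 8 U1 members 1 lacked them, RNU1-67P. The rise of RNVU1-3 and RNVU1-21 was in part fixed by the way they were chosen. The contrast of 10 of 12 with 1 of 8 rests in part on these rows and is given as a description. A missing run of letters says only that this exact run is not in the annotated gene.

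Most RNVU1 members lie on 1 chromosome. Of the 16, 15 were on chromosome 1 between 120850819 and 149636929, and RNVU1-34 was on chromosome 17. RNVU1-21 lies in an exon and RNVU1-2 in an intron of the long noncoding RNA LINC01138 on the same strand, and RNVU1-3 lies opposite an intron of it. LINC01138 had 1, 3, 3 and 0 counts in the libraries labelled siCTRL and 0, 0, 2 and 1 in those labelled siAPEX1, too few to be tested. RNVU1-34 lies in introns of TEX14 and IGBP1C, which had 0 counts in every library. RNVU1-6 lies in an exon of another long noncoding RNA (ENSG00000287190) on the same strand.

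Of the 7 U5 rows 4 rose and 3 did not pass. RNU5A-1 served as the reference gene of the family. RNU5A-8P, a pseudogene by its symbol and lying opposite an intron of HHAT, measured 306, 341, 301 and 288 CPM in the libraries labelled siCTRL and 986, 1312, 938 and 1048 CPM in those labelled siAPEX1. It was about as high as RNU5A-1 in the first group and well above it in the second (log2 fold change 1.79, standard error 0.0982, adjusted p = 3.38e-18), the smallest adjusted p of any member. HHAT had 2, 0, 1 and 1 counts in the libraries labelled siCTRL and 0 in every library labelled siAPEX1.

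RNU5A-1 and RNU5F-1 rose too. RNU5A-1 measured 278, 339, 307 and 297 CPM against 582, 754, 492 and 547 CPM (log2 fold change 0.96, standard error 0.102, adjusted p = 4.82e-10). RNU5F-1 measured 149.8, 183, 149 and 163 CPM against 353, 429, 355 and 364 CPM (log2 fold change 1.22, standard error 0.0959, adjusted p = 1.67e-13). RNU5E-4P, a pseudogene close to RNU5E-1 on chromosome 1, went from 73.4, 101.2, 81.6 and 80.8 CPM to 180.3, 182, 177 and 175 CPM (log2 fold change 1.08, standard error 0.102, adjusted p = 2.07e-11). In all of these the groups did not overlap.

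The other U5 genes did not pass. RNU5B-1, which held the most U5 counts, measured 1251, 1162, 1519.6 and 1695 CPM in the libraries labelled siCTRL and 1707, 2441, 960.2 and 1666 CPM in those labelled siAPEX1 (log2 fold change 0.27, standard error 0.139, adjusted p = 0.142), where replicate 3 labelled siAPEX1 was the lowest and replicate 2 the highest of all 8 libraries. Without replicate 3 labelled siAPEX1 RNU5B-1 passed (log2 fold change 0.49, adjusted p = 0.000654), and without replicate 2 of that label its log2 fold change was 0.06 (adjusted p = 0.756). RNU5E-1 measured 703, 739, 788 and 817 CPM against 746, 893, 526 and 765 CPM (log2 fold change −0.06, standard error 0.104, adjusted p = 0.717), and RNU5D-1 measured 398, 369, 347 and 319 CPM against 334, 421, 299.9 and 354 CPM (log2 fold change −0.03, standard error 0.0974, adjusted p = 0.875). Replicate 3 labelled siAPEX1 was also the lowest of the 8 for both, and without it their log2 fold changes were 0.10 and 0.07. With library size only both passed the test as lower, at −0.40 and −0.37. RNU5E-1 lies in an exon of a long noncoding RNA (ENSG00000285646) on the same strand, where reads are left out of the count if the annotation used holds both.

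Within U5 the shares of some rows rose and those of others fell. A share also falls when a row stays level while others rise, and RNU5E-1 and RNU5D-1 had log2 fold changes of −0.06 and −0.03. RNU5A-8P took 9.18% ± 1.17 (SD, n = 4) of the U5 counts in the libraries labelled siCTRL and 21.7% ± 2.26 (SD, n = 4) in those labelled siAPEX1, and RNU5A-1 took 9.05% ± 1.01 (SD, n = 4) and 11.97% ± 0.836 (SD, n = 4). RNU5E-1 took 22.5% ± 0.266 (SD, n = 4) and 14.7% ± 0.849 (SD, n = 4), and RNU5D-1 took 10.7% ± 1.70 (SD, n = 4) and 7.15% ± 0.629 (SD, n = 4). The groups did not overlap for any of these 4 shares. Those of RNU5B-1 overlapped, at 41.3% ± 4.53 (SD, n = 4) and 33.1% ± 5.27 (SD, n = 4), and the summed CPM of the 7 rows had a log2 ratio of 0.56, or 0.23 with overlapping groups when only library size was used.

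**Figure D4:**
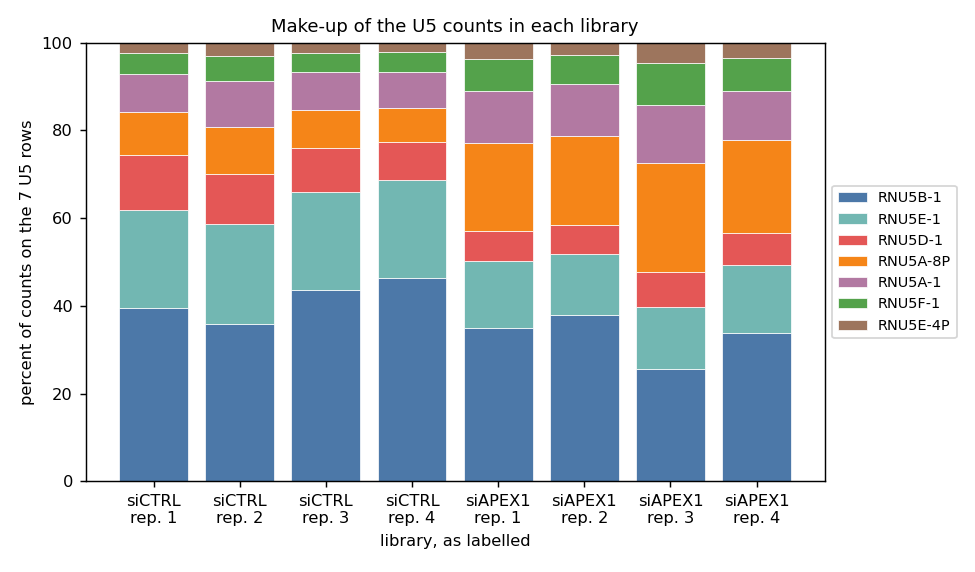
Make-up of the U5 counts in each library as stacked bars, in percent of the counts on the 7 U5 rows, for the 4 libraries labelled siCTRL and the 4 labelled siAPEX1. The orange part (RNU5A-8P) is 7.88% to 10.6% of the first 4 bars and 20.2% to 25.0% of the last 4, and the pale part (RNU5E-1) shrinks from 22.3% to 22.8% down to 13.9% to 15.6%.

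Among the U2 rows 3 of 5 rose. The gene with the symbol U2 on chromosome 17 (ENSG00000274452, chr17:43290291-43290481, minus strand), which differs from RNU2-1 by the substitution C170T, measured 438, 435, 357 and 347 CPM in the libraries labelled siCTRL and 590.4, 648, 585 and 786 CPM in those labelled siAPEX1 (log2 fold change 0.73, standard error 0.0988, adjusted p = 1.36e-07). It lies in an intron of CCDC200, which had 0 counts in every library. The steepest rise was that of RNU2-63P, a pseudogene with 77.4% identity to RNU2-1 and all 164 of its windows unique, at chr2:88016354-88016547, minus strand, whose sequence follows with differences from RNU2-1 in capitals.
RNU2-63P: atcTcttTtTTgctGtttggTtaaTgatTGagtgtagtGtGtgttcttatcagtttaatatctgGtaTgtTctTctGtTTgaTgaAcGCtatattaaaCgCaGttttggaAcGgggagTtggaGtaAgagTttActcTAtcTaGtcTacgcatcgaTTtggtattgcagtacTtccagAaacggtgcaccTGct

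RNU2-63P went from 24.6, 27.6, 19.9 and 27.7 CPM to 92.2, 99.8, 93.7 and 92.1 CPM, close to the same level in all 4 libraries of each group (log2 fold change 1.92, standard error 0.125, adjusted p = 6.78e-16). It is the only one of the 5 U2 members without the letters GTAGTA, which pair with the branch point and are held by 58.9% of the 90 U2 rows. RNU2-22P, the U2 member least like RNU2-1 with 64.3% identity, measured 6.03, 6.30, 6.49 and 6.64 CPM against 13.2, 25.2, 18.02 and 15.9 CPM (log2 fold change 1.49, standard error 0.245, adjusted p = 4.77e-06). RNU2-59P, at 95.3% identity, measured 367, 292, 257 and 278 CPM against 301, 318, 309 and 354 CPM and did not pass (log2 fold change 0.10, standard error 0.0985, adjusted p = 0.461), while its value with library size only was −0.24. Its share of the U2 counts went from 40.8% ± 2.30 (SD, n = 4) to 29.4% ± 1.01 (SD, n = 4) and that of RNU2-63P from 3.44% ± 0.563 (SD, n = 4) to 8.72% ± 0.927 (SD, n = 4), both without overlap.

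Both U4 genes rose, neither by 1 on the log2 scale. RNU4-2, the U4 row with the most counts, measured 808, 952, 897 and 896 CPM in the libraries labelled siCTRL and 1180.0, 1400.1, 1147 and 1205 CPM in those labelled siAPEX1 (log2 fold change 0.47, standard error 0.0874, adjusted p = 3.58e-05). RNU4-1, which lies beside it on chromosome 12 and differs by 4 substitutions, measured 427, 487, 500.0 and 452 CPM against 543, 664, 551 and 571 CPM (log2 fold change 0.32, standard error 0.0899, adjusted p = 0.00526), but −0.02 with library size only. With that scaling RNU4-2 had 0.13 and neither passed. The groups of both did not overlap in TMM-scaled CPM, and their shares of the U4 counts shifted slightly, from 65.2% ± 1.06 (SD, n = 4) to 67.5% ± 0.440 (SD, n = 4) for RNU4-2 and from 34.2% ± 0.971 (SD, n = 4) to 31.9% ± 0.399 (SD, n = 4) for RNU4-1. RNU4-36P measured 7.54, 8.72, 10.7 and 7.19 CPM against 9.06, 20.3, 7.93 and 8.74 CPM and did not pass (log2 fold change 0.40, adjusted p = 0.284).

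U6 was measured at low depth, with 2817 counts over 14 rows. RNU6-9, RNU6-2 and RNU6-4P are identical to RNU6-1 over the annotated gene. RNU6-2 measured 5.03, 4.84, 2.78 and 5.53 CPM, or 10, 10, 6 and 10 counts, in the libraries labelled siCTRL and 18.1, 26.8, 27.4 and 19.1 CPM, or 22, 33, 38 and 24 counts, in those labelled siAPEX1 (log2 fold change 2.33, standard error 0.252, adjusted p = 6.38e-10). RNU6-9 measured 15.6, 21.8, 20.4 and 16.6 CPM against 45.3, 56.003, 38.2 and 45.3 CPM (log2 fold change 1.296, standard error 0.157, adjusted p = 1.04e-08). RNU6-4P, the third of these rows, measured 10.6, 12.6, 11.6 and 16.05 CPM against 14.8, 17.04, 15.9 and 14.3 CPM and did not pass (log2 fold change 0.30, standard error 0.213, adjusted p = 0.306). The first 2 rose with no overlap between the groups, although RNU6-2 reached the total of 80 counts only through the libraries labelled siAPEX1. Of the U6 members' counts RNU6-9 took 10.4% ± 1.39 (SD, n = 4) in the libraries labelled siCTRL and 16.96% ± 0.767 (SD, n = 4) in those labelled siAPEX1, and RNU6-2 took 2.59% ± 0.861 (SD, n = 4) and 8.54% ± 2.44 (SD, n = 4), both without overlap. Since 0 of the 77 windows of each occur once in the genome, reads can be given to one of these rows only by bases outside the annotated gene, and the counts leave out any U6 read that lies wholly within it.

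RNU6-1005P and RNU6-33P rose by less than 1. RNU6-1005P measured 8.05, 9.69, 9.27 and 8.85 CPM against 13.999, 21.1, 11.5 and 15.1 CPM (log2 fold change 0.77, standard error 0.234, adjusted p = 0.0100). RNU6-33P measured 26.6, 33.4, 28.3 and 27.1 CPM against 41.2, 56.8, 30.998 and 31.8 CPM (log2 fold change 0.46, standard error 0.160, adjusted p = 0.0227), and its groups overlapped. Neither passed with DESeq2 (adjusted p = 0.0520 and 0.0847), with library size only, or without replicate 2 labelled siAPEX1 (log2 fold change 0.61 and 0.28, edgeR adjusted p = 0.0721 and 0.218). The third U6 row classed as a gene, RNU6V, measured 10.1, 11.1, 12.5 and 9.41 CPM against 18.9, 21.1, 7.93 and 16.7 CPM and did not pass (log2 fold change 0.55, standard error 0.239, adjusted p = 0.0743), but did without replicate 3 labelled siAPEX1 (0.82, adjusted p = 0.00566). The remaining 8 U6 pseudogenes had log2 fold changes of 0.00 to 0.58 and did not pass.

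Levels were compared between genes per kilobase of annotated gene. In the libraries labelled siCTRL RNVU1-7 stood at 32584 CPM per kilobase, RNU5B-1 at 12127, RNU5E-1 at 6347, RNU4-2 at 6299 and RNVU1-31 at 5000.3. The variants with the steepest rise were at the other end of the order, with RNVU1-3 at 21.1 and RNVU1-21 at 25.5 CPM per kilobase. Both were taken only through the libraries labelled siAPEX1. A low level with a steep rise was therefore in part fixed by the way they were chosen. These levels rank where reads were placed and not how much of each snRNA the cells hold, since reads of the repeated genes are left out.

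At the threshold of 80 counts, the 3 members with the fewest counts were RNU6-25P with 114, RNU6-34P with 108 and RNU2-6P with 91, and the 3 rows just below it were RNU6-891P with 75, RNU6-698P with 74 and RNU6-40P with 74. A row with the symbol U1 (ENSG00000273727), also below the threshold, was picked by name and not by its rank. It had 72 counts, made up of 2, 0, 5 and 4 in the libraries labelled siCTRL and 18, 14, 15 and 14 in those labelled siAPEX1. Of all members 30 overlap another annotated gene, 14 of them in an intron on the same strand and 4 in an exon on the same strand. The overlapping genes that could be tested, PDE4D (log2 fold change 0.10), GNAI3 (0.41), METTL9 (0.02), WAPL (0.55) and MLLT10 (0.30), did not pass.

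The genes for the proteins that assemble on these RNAs moved both ways, and their counts turned on the processing. Of 47 genes for core snRNP proteins 37 were tested, of which 4 rose and 4 fell, with a median log2 fold change of −0.08. These became 0 higher and 12 lower with library size only, 0 and 2 with DESeq2, and 0 and 4 when all genes with a count were tested. Of 64 genes for snRNA transcription, 3′ processing, assembly, transport and turnover 25 were tested, of which 0 rose and 3 fell, with a median of 0.01. At an unadjusted p under 0.05 the second list had 1 higher and 4 lower, and DESeq2 gave 0 higher and 2 lower. Over all genes the shares higher and lower were 15.9% and 15.8%.

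SNRPD3, a protein of the Sm ring, fell from 27, 25, 40 and 23 counts to 5, 3, 8 and 9 counts (log2 fold change −1.53, standard error 0.291, adjusted p = 5.45e-05). LSM8, the subunit that marks the LSm ring of U6, fell from 25, 30, 20 and 25 counts to 10, 8, 3 and 5 counts (log2 fold change −1.28, standard error 0.303, adjusted p = 0.00100). Both were covered by few reads, and the groups did not overlap. LSM7, another ring protein, also fell (log2 fold change −0.53, adjusted p = 0.0262). The rings did not move as a whole. Of the 8 Sm ring genes tested 2 fell and 1 rose, SNRPE (log2 fold change 0.49, adjusted p = 0.0347, overlapping groups). Of the 5 genes tested for the LSm ring and U6 recycling 2 fell and 0 rose, and their median was 0.07. SF3B1 and SNRPB2, proteins of the U2 snRNP, rose by 0.39 and 0.35 on the log2 scale (adjusted p = 0.0276 and 0.0386), but not with library size only or DESeq2. SNRPD2, the list's gene with the most counts, did not pass (log2 fold change 0.19, and −0.16 with library size only). In the second list KPNB1, which carries snRNPs into the nucleus, fell by 0.65, MTREX, a helicase of the nuclear exosome pathway, fell by 0.56 and INTS3, a subunit of the Integrator complex that cleaves snRNA precursors, fell by 0.80 (adjusted p = 1.22e-04, 0.00335 and 0.0470). The calls of LSM7 and INTS3 were lost with DESeq2 (adjusted p = 0.127 and 0.180) and, like those of SF3B1 and SNRPB2, without several single libraries.

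The kit reads RNA with a 3′ end that can be tailed and reads of up to 100 bases, so full-length RNA and fragments were counted alike.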

How the data were processed

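RNA from A549 cells was sequenced as 100-base single-end reads, in 4 libraries labelled siCTRL and 4 labelled siAPEX1. The authors removed adapters with cutadapt, aligned to GRCh38 with STAR (version 2.5.3a per the submitters' processing notes) and deposited the counts of its GeneCounts function, whole numbers without normalization. That function counts reads with 1 best alignment that overlap a single gene. The Ensembl release and the strand setting are not given in the sources used here. Totals per library ran from 1348386 to 1949886 counts, and errors cover replicate spread.

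Groups came from the labels. Gene types, symbols and positions came from GENCODE 44, which matched 57532 of the 58302 genes. For 770 no type was assigned. All genes were fitted with edgeR 4.0.16 in R 4.3.3 (TMM factors, quasi-likelihood test, filterByExpr at min.count 10 and min.total.count 15, Benjamini-Hochberg over 5368 genes, two-sided). A gene passed at an adjusted p of at most 0.05. The standard error is the log2 fold change divided by the square root of F. A prior count of 2 entered the log2 CPM behind the correlations between libraries, and not the fitted fold changes. The common biological coefficient of variation was 0.0832. The fit was tested on simulated data. Identity was computed by global alignment to the reference gene of each family, and windows of 31 bases were searched in the genome on both strands. Members and gene lists were chosen with earlier results of these data known. Named genes were the members that passed, those with the most counts of their family and class, and the genes nearest the count threshold. Genes that overlap a member were named too, and in each list up to 6 that passed without overlap and the one with the most counts. SNRPE and a U1 row below the threshold were picked by name. The alternatives were other scalings, DESeq2 1.42.0, other filters, a fold threshold of 0.75, a replicate block and each library left out. Leaving out APEX1, or all snRNA genes from the library sizes, was added after the data were seen, as was leaving out members taken only through the libraries labelled siAPEX1. Sequences of U5 and U6 members are not reported here.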

Additional observations from a re-analysis of the deposited data

Results flagged for a closer look

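In 34 members, 68 groups of 4 libraries were searched for 1 library far from the other 3, which chance flags in about 1 group in 20, and 2 were found. Both were replicate 2 labelled siAPEX1. RNU5F-1 stood there at 429 CPM, against 353 to 364 CPM in the other 3 libraries of the label. RNU4-36P stood at 20.3 CPM, against 7.93 to 9.06 CPM. That library also had the highest CPM of RNU5B-1, RNU5A-8P, RNU5A-1, RNU5E-1, RNU4-1 and RNU4-2, and its summed U5 CPM was 6431 against 3747 to 4918 in the other 3 of its label. Its total was not extreme, at 1429038 counts.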

How the results depend on the processing

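Members higher (27) ranged from 22 to 31 over other scalings, tests and filters and from 26 to 30 when 1 library was left out, and members lower stayed at 0 except with library size only (3). Members higher by at least 1 (19) numbered 14 with library size only, 21 at the fold threshold of 0.75 and 19 to 20 without 1 library. With library size only the log2 ratios of the family sums were −0.0296 (U1), 0.24 (U2), 0.0870 (U4), 0.23 (U5) and 0.26 (U6), and RNVU1-7, RNU5B-1, RNU4-1, RNU1-89P, RNU2-59P and SNRPD2 turned negative at −0.174, −0.0748, −0.0234, −0.0739, −0.239 and −0.157. RNU5D-1 turned to 0.0116 with TMM factors from protein-coding genes. Without 1 library RNU5D-1 ranged from −0.0988 to 0.0734 and RNU5E-1 from −0.144 to 0.101. Core snRNP genes higher (4) numbered 0 with library size only, DESeq2 or all genes with a count, 1 with at least 10 counts in every library, and 1 to 3 without 1 library. Those lower (4) numbered 12 with library size only, 2 with DESeq2 and 2 to 4 without 1 library. For the second list, higher (0) became 2 with all genes with a count. Its lower count (3) became 5 with library size only, 2 with DESeq2 and 2 to 3 without 1 library. RNVU1-7 passed with TMM factors from protein-coding genes (0.21, adjusted p = 0.0470). RNU1-89P was lost with both other filters (adjusted p = 0.326 and 0.0902) and RNU4-1 with all genes with a count (0.136). RNU6-33P was lost without replicate 1 or 3 labelled siCTRL (0.0553 and 0.0515) or replicate 2 labelled siAPEX1 (0.218). INTS3 was lost without any 1 of 7 libraries (0.0554 to 0.191), LSM7 of 5 (0.0550 to 0.102), SNRPB2 of 4 (0.0514 to 0.136) and SF3B1 of 3 (0.0597 to 0.103). The causes were not tested. Same-numbered libraries of the 2 groups had correlations of −0.0373 to −0.00348, and the other pairs −0.0397 to 0.0357. No pairing was thus visible, but this cannot tell whether same-numbered libraries shared a culture or batch, which the labels do not say. The replicate block gave 28 members higher and 0 lower and kept all 34 named members on the same side. INTS3 lost its call under the block (adjusted p = 0.0624), with TMM factors from protein-coding genes (0.0585), with DESeq2 (0.180) and with all genes with a count (0.0758). The 14 U6 rows rest on 2817 counts in all.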
